A study of Mus musculus with 24 samples.

Results

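The 10 genes described here encode proteins that neutrophils store in granules or release as alarm signals: *S100a8* and *S100a9* (alarmins), *Saa3* and *Lcn2* (acute-phase proteins), *Ngp*, *Camp* and *Ltf* (specific granules), *Elane* and *Mpo* (azurophil granules) and *Retnlg*, a resistin-like secreted protein. They were chosen by name, and all 10 were found among the 55401 genes of the read count table. The table came from bulk poly(A) RNA-seq of the mouse maternal-fetal interface (MFI), the zone where placenta and uterine decidua meet. WT mice were compared with mice homozygous for a CRISPR-Cas9 deletion of *C1qtnf6*, which encodes the placental hormone CTRP6, on the C57BL/6JCya background. MFI was taken on 4 gestation days (gd): gd10.5, then gd14.5 and gd16.5 in mid to late gestation, and gd19.5 just before birth. Each genotype had 3 libraries at each of these stages, 24 in all, and no other treatment was given to these groups. The deletion is not restricted to one cell type, and the labels do not say how many dams or litters the libraries of a group come from.

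Neutrophils fill their granules in sequence as they mature in the bone marrow. Azurophil granule proteins such as neutrophil elastase and myeloperoxidase are transcribed in promyelocytes, specific granule proteins such as lactoferrin follow in myelocytes, and *S100a8*, *S100a9*, *Retnlg* and the G-CSF receptor gene *Csf3r* are transcribed strongly in mature cells. Several of these genes are not restricted to neutrophils: lactoferrin and lipocalin 2 are also made by uterine epithelium, serum amyloid A3 by many inflamed epithelia and macrophages, and S100A8 is needed for early mouse embryos to survive while S100A9 is not. In whole tissue, fewer cells of a type and less RNA per cell cannot be told apart.

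*S100a8* and *S100a9* are neighbours on chromosome 3 in the GRCm38 build, *S100a8* at 90668978 to 90670035 on the forward strand and *S100a9* at 90692632 to 90695721 on the reverse strand. *Retnlg*, at 48872621 to 48874496 on chromosome 16, has the highest within-group correlation with *S100a9* among the members tested. Their promoter windows are shown because the levels of the first pair went in opposite directions and those of *S100a9* and *Retnlg* together. Each run holds 250 bases before and 50 after the RefSeq start (GRCm38.p6), read on the strand of the gene. Capitals mark every match, on either strand, to the letters TTNNGNAA (a C/EBP-type site) and GAGGAA (a PU.1-type site), and, on the gene's own strand, to TATAAA (the core promoter element named for its letters). The windows lie at chr3:90668821-90669120 (forward strand), chr3:90695672-90695971 (reverse strand) and chr16:48872358-48872657 (forward strand).
S100a8: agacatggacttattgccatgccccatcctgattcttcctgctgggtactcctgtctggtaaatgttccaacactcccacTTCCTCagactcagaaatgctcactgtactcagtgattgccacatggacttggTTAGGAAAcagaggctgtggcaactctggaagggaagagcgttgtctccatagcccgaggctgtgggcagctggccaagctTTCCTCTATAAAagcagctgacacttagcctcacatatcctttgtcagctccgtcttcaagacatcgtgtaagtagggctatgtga
S100a9: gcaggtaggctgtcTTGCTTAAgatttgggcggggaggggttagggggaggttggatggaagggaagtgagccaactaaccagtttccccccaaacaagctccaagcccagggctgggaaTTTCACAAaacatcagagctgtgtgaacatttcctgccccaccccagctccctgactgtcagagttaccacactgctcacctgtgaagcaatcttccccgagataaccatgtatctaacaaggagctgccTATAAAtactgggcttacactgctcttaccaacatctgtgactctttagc
Retnlg: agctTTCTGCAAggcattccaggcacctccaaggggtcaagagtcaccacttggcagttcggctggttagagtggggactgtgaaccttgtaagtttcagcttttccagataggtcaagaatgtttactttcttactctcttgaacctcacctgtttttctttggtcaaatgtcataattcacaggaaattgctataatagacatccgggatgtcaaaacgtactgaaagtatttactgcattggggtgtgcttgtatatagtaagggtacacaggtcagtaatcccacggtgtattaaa

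The *S100a8* window held 1 C/EBP-type match, 2 PU.1-type matches and 1 TATAAA match. The TATAAA match, from -30 to -25 of the RefSeq start, touches the PU.1-type match before it. The gene as counted begins upstream of this match, at 90668978, so its place before a start holds for the RefSeq start only. The *S100a9* window held 2 C/EBP-type matches, no PU.1-type match and 1 TATAAA match, at bases 1 to 6 of the transcript and so not upstream of the RefSeq start, and the *Retnlg* window held 1 C/EBP-type match. Of 32851 promoter windows of the same length, 40.7% held the C/EBP-type letters, 28.3% the PU.1-type letters and 8.32% the letters TATAAA, so the first and second of these were frequent in promoters of all kinds.

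The libraries held 20975717 to 37383108 counts assigned to genes. Levels are given as CPM, counts scaled to a common library size that was normalised by the TMM method over all 24 libraries. The deleted gene matched every label: *C1qtnf6* stood at 64.7 to 168 CPM in the WT libraries and at 0.0341 to 2.05 CPM in the KO libraries. Some libraries stood apart in composition. At gd16.5 the sum of 4 Y-linked genes, from lowest to highest, was 0.487, 0.663 and 89.2 CPM in WT and 1.14, 188 and 194 CPM in KO. KO gd10.5 replicate 2 held 13199 CPM of 8 trophoblast markers against 3335 to 5173 CPM in the other 5 libraries of that stage. The sum of 6 yolk sac endoderm markers, *Afp* among them, reached 8004 CPM in WT gd16.5 replicate 1, 7669 CPM in KO gd16.5 replicate 1 and 21857 CPM in KO gd16.5 replicate 2, against 74.2 to 186 CPM in the other 3 libraries of gd16.5. At gd10.5 it was 1228 to 3641 CPM in all KO libraries and WT replicate 1, and 12.3 and 17.5 CPM in the other WT libraries. Neutrophil markers differed widely in level. Of 17 neutrophil identity genes, 11 to 15 had more than 3 counts in a library. *Ly6g*, the usual surface marker of mouse neutrophils, had 0 counts in all 6 libraries at gd10.5 and at most 3 counts in any library. *Cebpe*, the transcription factor of the specific granule stage, did not exceed 0.167 CPM at any stage. *Cxcr2* and *Il1r2*, which are not restricted to neutrophils, stood at 50.7 to 100.3 CPM and 85.7 to 458 CPM. The cells they came from were not tested.

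The members spanned a wide range. *S100a8* had 29683 counts over all libraries, *Lcn2* 2845, *S100a9* 1789, *Ltf* 1274 and *Saa3* 734, while *Retnlg* had 259, *Mpo* 159, *Ngp* 150, *Camp* 50 and *Elane* 5. Genes with too few counts were left untested: 8 members passed the expression filter over all 24 libraries, *Camp* and *Elane* did not, and between 4 and 7 members passed within a stage. Precision for the last 5 genes is set by counting, since 3 counts correspond to 0.0773 to 0.149 CPM, depending on the library.

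The alarmins came first in abundance. S100A8 and S100A9 form calprotectin, a heterodimer released by activated myeloid cells that binds TLR4 and RAGE. At gd10.5, *S100a8* stood at 98.6, 165 and 76.4 CPM in the WT libraries and at 127, 56.8 and 119 CPM in the KO libraries. At gd14.5 it stood at 26.4, 22.0 and 26.3 CPM in WT and 31.5, 24.7 and 22.4 CPM in KO. The lowest library of gd10.5 was above the highest library of every later stage (31.5 CPM). The levels at gd16.5 (15.3 to 21.4 CPM) and gd19.5 (15.3 to 25.0 CPM) overlapped each other. Those of gd16.5 were below all libraries of gd14.5, and those of gd19.5 overlapped them.

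*S100a9* ran the other way. At gd10.5 it stood at 1.72, 1.43 and 1.14 CPM in WT and at 0.710, 2.21 and 0.969 CPM in KO, and by gd19.5 at 5.14, 3.70 and 4.30 CPM in WT and 4.20, 2.90 and 5.55 CPM in KO. All libraries of gd19.5 were above all libraries of gd10.5. Per kilobase of exon, *S100a8* exceeded *S100a9* by a median of 68.6-fold at gd10.5 (6 libraries, 19.3 to 134), 8.83-fold at gd14.5 (7.93 to 11.2), 4.62-fold at gd16.5 (2.58 to 7.67) and 3.42-fold at gd19.5 (2.75 to 4.37). The ratio at gd10.5 did not overlap that of any later stage, and the lowest of the 6, in KO gd10.5 replicate 2, came from the library that stood apart. BLAST of the *S100a8* transcript found no other gene, and the nearest to *S100a9* was *Gm5849*, with 70.7% identity over 167 bases.

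**Figure D1:**
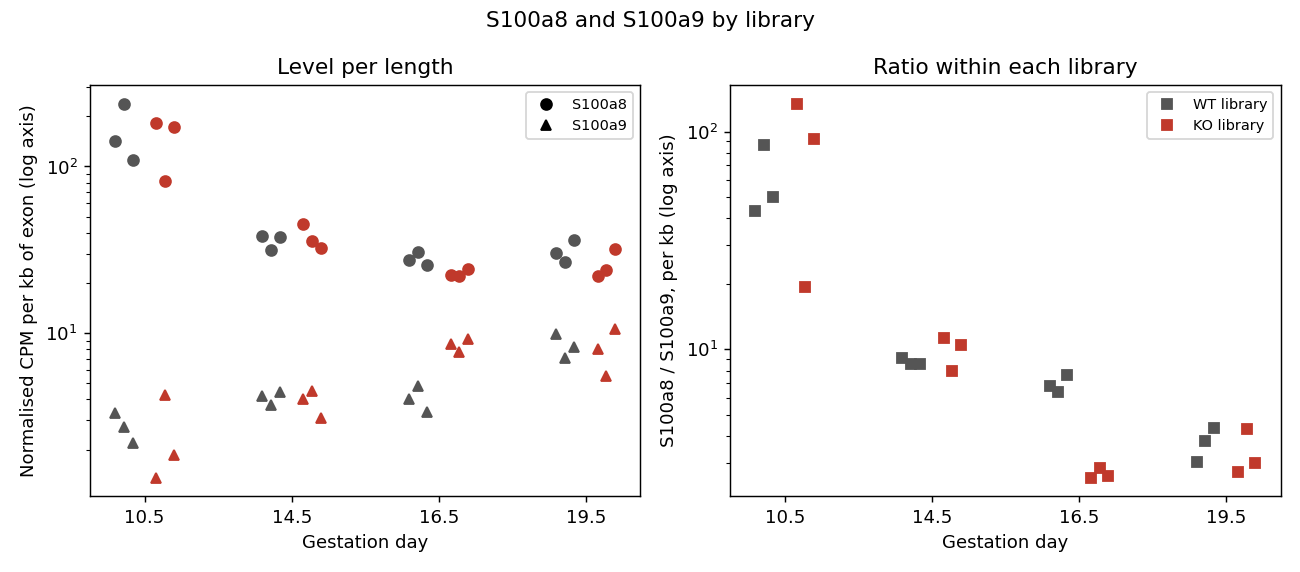
Levels of S100a8 (circles) and S100a9 (triangles) in normalised CPM per kb of exon (left, log axis) and their ratio within each library (right, log axis) by gestation day, with WT libraries in grey and KO libraries in red. The ratio runs from 19.3 to 134 at gd10.5 and from 2.75 to 4.37 at gd19.5.

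Stages were compared in a single fit of all 24 libraries, as the mean of the WT and the KO difference, with edgeR's quasi-likelihood test and Benjamini-Hochberg adjustment over 19299 genes. A gene was called when the adjusted p was under 0.05 and the log2 fold change was over 1 or under -1. From gd10.5 to gd14.5, 4 of the 8 tested members were called lower and 1 higher, against 12.1% and 10.3% of all tested genes. From gd14.5 to gd16.5, 3 were called higher and 0 lower, against 4.93% and 3.09%. From gd16.5 to gd19.5, 0 were called, against 1.03% higher and 1.63% lower. The shares over all tested genes apply to the counts of list genes at each step below as well. In that last step 4 members (*S100a9* and *Retnlg* with positive, *Saa3* and *Ngp* with negative estimates) had an unadjusted p under 0.05, beside 25.4% of all tested genes, DESeq2 called 0, and their adjusted p in edgeR was 0.13 to 0.16. The median log2 fold change of the 8 members was -0.68, 0.14 and -0.24 over the steps, beside -0.01, -0.01 and -0.00 over all genes.

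*S100a8* fell by 2.07 on the log2 scale from gd10.5 to gd14.5 (SE 0.19, adjusted p = 1.7e-08 by edgeR), a 4.19-fold difference, and stayed called in each of 12 fits that left out a library. All 6 NK markers were also called lower at this step (median log2 fold change -4.48). So were 6 of 6 yolk sac endoderm markers (median -4.50), 5 of 6 decidual stroma markers (-1.26) and 2 of 5 monocyte markers (-0.93). Of 7 tested trophoblast markers, 5 were called higher and 2 lower. Over the 24 libraries the log2 level of *S100a8* gave Pearson's r = 0.93 with that of *Gzma* and 0.89 with that of *Prf1*, both NK effector genes, and 0.71 and 0.62 for deviations from group means, as a description. Deviations also gave 0.62 with *Ctsg* (0.90 over the 24 libraries) and 0.58 with the macrophage marker *C1qa* (0.06 over the 24 libraries). KO gd10.5 replicate 2, which stood apart in composition, had the lowest *S100a8* level of its stage, 56.8 CPM. These correlations were not computed without it. The part of NK cells or of other cells in the *S100a8* levels was not tested. The next step of *S100a8*, -0.54 (SE 0.19, adjusted p = 0.029), was below the fold threshold. *S100a9* gave estimates of 0.61 (SE 0.22, adjusted p = 0.018) and 0.56 (SE 0.21, adjusted p = 0.044) over the first and second steps, both under the threshold on fold. The difference in direction between the neighbours therefore rested on estimates of which only that of *S100a8* passed both criteria.

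The azurophil granule members were scarce: *Elane* at every stage, and *Mpo* after gd10.5, were near the limit of detection. *Mpo*, which makes hypochlorous acid in phagosomes, stood at 1.07, 0.540 and 0.846 CPM in the WT libraries of gd10.5 and at 1.01, 0.343 and 0.934 CPM in the KO libraries. At gd14.5 it was 0.0315 to 0.193 CPM, and at gd16.5 and gd19.5 no library held more than 3 counts. *Mpo* fell by 3.33 on the log2 scale from gd10.5 to gd14.5 (SE 0.47, adjusted p = 4.1e-06 by edgeR), and the groups of 6 libraries did not overlap. *Elane*, neutrophil elastase, which sits in the same granules, had 1 count over the 6 libraries of gd10.5 and never more than 2 counts in a library. *Mpo* transcripts at gd10.5 were thus not accompanied by *Elane* transcripts at this depth. The nearest transcript to *Mpo* was that of the eosinophil peroxidase gene *Epx*, with 71.9% identity.

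Of 7 further azurophil granule genes, 5 were tested. The 4 most abundant were *Srgn* (the proteoglycan core serglycin), *Ctsc* (which activates granule proteases), *Ctsg* (cathepsin G) and *Serpinb1a* (an elastase inhibitor). In the step to gd14.5, 3 of the 5 fell and 0 rose, beside 12.1% and 10.3% of all tested genes. *Ctsg* fell by 2.41, *Ctsc* by 1.89 and *Serpinb1a* by 1.10 on the log2 scale. In the step to gd16.5, *Ctsg* fell by a further 2.21 and *Prtn3* (proteinase 3) by 2.05, while *Serpinb1a* rose by 2.05. *Ctsg* ran from 32.8 to 88.3 CPM at gd10.5 to 0.546 to 1.83 CPM at gd19.5. It was far above *Mpo* and *Elane* at gd10.5. NK cells also store granule proteins bound to serglycin. The sum of 6 NK markers moved the same way, from 239 to 630 CPM at gd10.5 to 6.51 to 14.6 CPM at gd19.5. Over the 24 libraries the log2 level of *Ctsg* gave Pearson's r = 0.99 with *Prf1* and 0.74 with *Gzma*. Deviations from group means gave 0.89 and 0.36, as a description. The part of NK cells in the *Ctsg* levels was not tested.

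The members listed here under specific granules (*Ngp*, *Camp* and *Ltf*) did not move together over the stages. *Ngp*, a cystatin-like protein of myelocytes, had 1 count in the 6 libraries of gd10.5 together and 12 counts at gd14.5. At gd16.5 it stood at 0.661, 0.752 and 0.438 CPM in WT and at 0.697, 0.493 and 0.502 CPM in KO, from 9 to 17 counts a library. All 6 were above all libraries of gd14.5 (at most 0.111 CPM). The ratio of summed counts between gd16.5 and gd14.5 was 9.49 (95% interval 5.15 to 19.1, counting error only). *Ngp* was called higher at this step (log2 fold change 3.23, SE 0.40, adjusted p = 7.7e-06 by edgeR) in each genotype alone. It was also called from gd10.5 to gd14.5, but with 1 count on the lower side the fold has no fixed size: the ratio of summed counts was 10.6 with an interval of 1.57 to 452.

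*Camp*, the cathelicidin precursor, had 0 to 8 counts a library and did not pass the filter. From gd14.5 to gd16.5 it was called higher by edgeR without a filter (log2 fold change 1.94, adjusted p = 0.037) and not by DESeq2 (2.08, adjusted p = 0.0505). It reached 0.247 CPM at most. *Ltf*, lactoferrin, which binds iron, passed the filter of all reported comparisons and was called in none of them: its stage estimates were -0.33, -0.28 and -0.65, with standard errors of 0.44 to 0.48. *Ngp* and *Ltf* both belong to specific granules and lie on chromosome 9, yet *Ltf* was present at gd10.5 (1.10 to 5.47 CPM), where *Ngp* was near 0. *Retnlg* lay in between. It stood at 0.0747 to 0.229 CPM at gd10.5, at 0.155 to 0.315 CPM at gd14.5 and at 0.409 to 1.08 CPM at gd19.5. Its step from gd14.5 to gd16.5 was at the threshold (log2 fold change 1.00, SE 0.30, adjusted p = 0.012 by edgeR). The call was lost in 4 of 12 fits that left out a library, down to 0.79 without WT gd16.5 replicate 1. It held in 4 of 8 other alternatives. Those that lost it included the fits without the expression filter (0.98), with the replicate number as a block (0.99) and of the WT libraries alone (0.22). The KO libraries alone gave 1.80.

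Of 19 other specific and gelatinase granule genes, 13 were tested. *Anxa1*, *Lyz2*, *Adam8* and *Cybb* were the most abundant, and none of these is restricted to neutrophils. From gd10.5 to gd14.5, 2 rose and 5 fell, beside 10.3% and 12.1% of all tested genes. Collagenase 2 (*Mmp8*, 1.45) and the chitinase-like *Chil3* (1.55) rose. Gelatinase B (*Mmp9*) fell by 3.31 and *Pglyrp1*, a peptidoglycan-binding protein, by 3.08. From gd14.5 to gd16.5, 3 rose, *Mmp8* by 1.12, *Olfm4* by 2.00 and *Stfa1* by 1.71, and 2 fell. *Mmp8* stood at 0.0747 to 0.344 CPM at gd10.5 and at 1.23 to 2.19 CPM at gd19.5, with no overlap. *Mmp8* and the other genes of this list that rose or fell were chosen once their values were known. Of 17 neutrophil identity genes, 14 were tested. At the first step 2 rose and 3 fell, beside 10.3% and 12.1% of all tested genes. At the second 2 rose and 2 fell, beside 4.93% and 3.09%, and 0 were called at the last. With 14 genes, counts of 2 or 3 say little about this list.

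**Figure D2:**
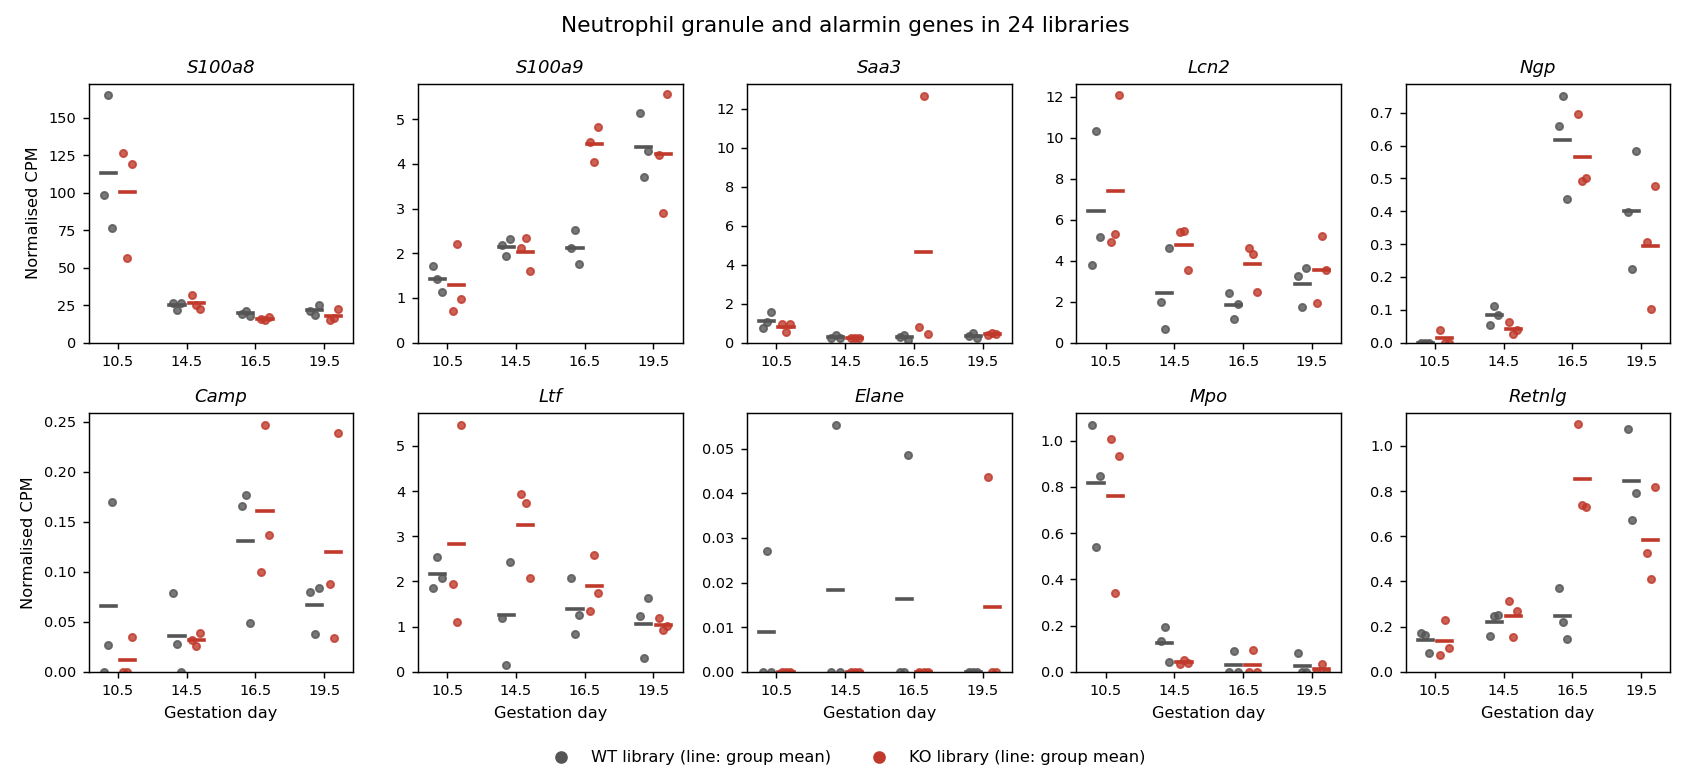
Normalised CPM of each of the 10 genes (linear axes from 0, scaled per gene) by gestation day, with 1 point per library, WT in grey and KO in red, and a line at each group mean. S100a8 and Mpo are highest at gd10.5, S100a9, Ngp and Retnlg are higher at gd16.5 and gd19.5 than at gd10.5, and Saa3 has a single high point, 12.7 CPM in KO gd16.5 replicate 2.

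By the median over 6 libraries, the acute-phase pair was highest at gd10.5, 5.23 CPM for *Lcn2* and 0.934 CPM for *Saa3*, while the highest single *Saa3* level was at gd16.5. *Lcn2*, lipocalin 2, which withholds iron from bacteria by binding their siderophores, stood at 3.79, 10.3 and 5.16 CPM in WT and at 4.89, 5.29 and 12.1 CPM in KO at that stage. It fell by 1.04 on the log2 scale to gd14.5 (SE 0.37, adjusted p = 0.019 by edgeR). The stages overlapped, and the call was lost in 5 of 12 fits that left out a library, with estimates down to -0.77 without KO gd10.5 replicate 3 and -0.78 without WT gd10.5 replicate 2. In the KO libraries alone it was -0.63 (adjusted p = 0.23). *Saa3* stood at 0.723, 1.08 and 1.57 CPM in WT and at 0.934, 0.533 and 0.934 CPM in KO at gd10.5, and at 0.210 to 0.387 CPM at gd14.5. The drop of *Saa3*, by 1.87 (SE 0.63, adjusted p = 0.014), had no overlap between the stages. Of 16 further acute-phase genes, 14 were tested, and at this step 8 fell and 1 rose, beside 12.1% and 10.3% of all tested genes. *Lbp*, which presents lipopolysaccharide to CD14, fell by 2.36 and *Socs3* by 1.29, while *Cp* rose by 1.52 and *Nfkbiz* was not called.

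The call of *Saa3* from gd14.5 to gd16.5 (2.17, SE 0.71, adjusted p = 0.022) rested mainly on 1 library. KO gd16.5 replicate 2 held 411 counts of *Saa3*, 94.1% of its group and 56.0% of the counts in all libraries, a level of 12.7 CPM. The other KO libraries of gd16.5 stood at 0.797 and 0.456 CPM and the WT libraries at 0.289, 0.398 and 0.146 CPM. Without that library the estimate was 0.71 (adjusted p = 0.092). It was no longer called without WT gd16.5 replicate 1 or 2 either, and without replicate 1 only *Ngp* was called at this step. Between genotypes at gd16.5 *Saa3* did not pass the filter. DESeq2 on all 24 libraries gave a log2 fold change of 4.05 (adjusted p = 0.0010), and edgeR without a filter gave 4.06 (adjusted p = 0.039) with all 6 libraries and 1.13 (adjusted p = 0.57) without KO gd16.5 replicate 2. The same library held the highest sum of yolk sac endoderm markers, but WT gd16.5 replicate 1 and KO gd16.5 replicate 1, with 8004 and 7669 CPM of them, held little *Saa3*. *Steap4*, a metalloreductase of the acute-phase list, was also highest there, at 33.5 CPM against 6.25 to 10.7 CPM in the other libraries of gd16.5. The relatives *Saa1* (81.3% identity to *Saa3*) and *Saa2* did not exceed 0.249 CPM at gd16.5. Whether these are linked was not tested.

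*Lcn2* and *Ltf* varied together from library to library. When each log2 level was taken from its group mean, the 24 deviations of *Lcn2* and *Ltf* gave Pearson's r = 0.79 (permutation p = 0.0011 within groups, adjusted p = 0.031 over 28 pairs of members) and Spearman's rho = 0.70 (permutation p = 0.0015). Without the 2 libraries farthest from the median of *Lcn2*, r was 0.64. No other pair of members passed after adjustment. *S100a9* and *Retnlg* came next by r (0.64, adjusted p = 0.18). The sum of 10 uterine epithelial markers was 1038 to 1732 CPM over the 24 libraries. It was nearly all *Krt18*, so it follows that gene and is no measure of the list. The part of uterine epithelium in this relation was not tested. The joint low point was WT gd14.5 replicate 2, with 0.663 CPM of *Lcn2* and 0.138 CPM of *Ltf*, and the joint high point was KO gd10.5 replicate 3, with 12.1 and 5.47 CPM. The labels give no extraction date or run for either library.

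**Figure D3:**
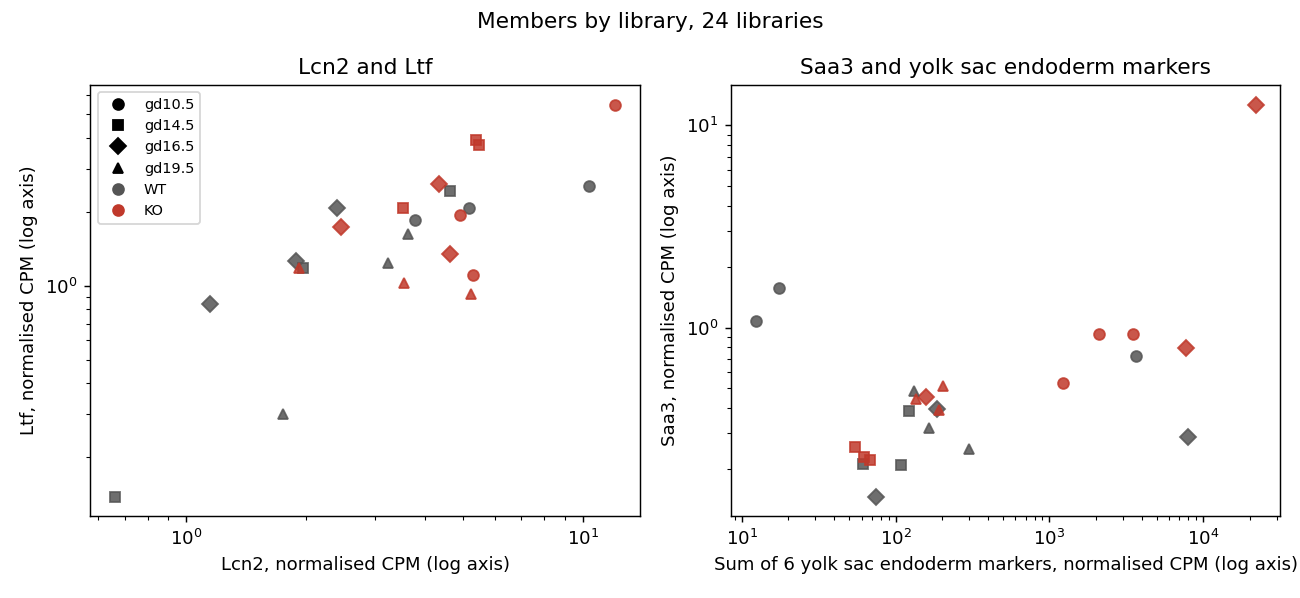
Ltf against Lcn2 (left) and Saa3 against the sum of 6 yolk sac endoderm markers (right), all in normalised CPM on log axes, with 1 point per library, shape for the stage and WT in grey and KO in red. Lcn2 and Ltf run from 0.663 and 0.138 CPM to 12.1 and 5.47 CPM together, while Saa3 is high in only 1 of the 3 libraries of gd16.5 rich in these markers.

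Genotypes were compared within each stage, 3 KO against 3 WT libraries, to ask whether loss of CTRP6 goes with a change in these genes. By edgeR, 0 members were called at gd10.5, gd14.5, gd16.5 or gd19.5, against 0.00572%, 0.0166%, 0.00586% and 0.023% of all tested genes. At shares this low, a count of 0 among the 4 to 7 members tested at a stage says little about them. At an unadjusted p under 0.05, members numbered 0 of 6 tested at gd10.5, 2 of 4 at gd14.5 (*Lcn2* and *Ltf*), 4 of 6 at gd16.5 (*S100a9*, *Retnlg*, *Lcn2* and *S100a8*) and 0 of 7 at gd19.5, beside 0.801%, 6.78%, 11.1% and 13.5% of all tested genes. DESeq2 on 6 libraries called 1 member, *S100a9*, at gd16.5 and 0 at the other stages. An exact permutation test of 3 against 3 libraries cannot go below p = 0.1.

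Most of the separation between the genotypes was seen at gd16.5. *S100a9* stood at 2.11, 2.52 and 1.75 CPM in WT and at 4.48, 4.04 and 4.83 CPM in KO, so that every KO library was above every WT library. The log2 fold change was 1.07 (SE 0.19), with an unadjusted p of 0.00054 and an adjusted p of 0.28 by edgeR. The exact permutation p was 0.1, the smallest it can give. DESeq2 on the 6 libraries gave 1.05 with an adjusted p of 0.0076, and the adjusted p over the alternatives that kept all libraries ran from 0.0076 to 0.42. The estimate stayed between 0.95 and 1.21 when each library was left out.

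*Retnlg* stood at 0.372, 0.221 and 0.146 CPM in WT (3 to 9 counts) and at 1.10, 0.740 and 0.730 CPM in KO (16 to 24 counts) at gd16.5. Again the genotypes did not overlap. The log2 fold change was 1.74 (SE 0.39, adjusted p = 0.36 by edgeR), from 1.50 to 2.18 when each library was left out. *Lcn2* stood at 2.40, 1.15 and 1.90 CPM in WT and at 4.63, 4.35 and 2.46 CPM in KO, a difference of 1.08 (SE 0.34, adjusted p = 0.42) that also showed no overlap. *S100a8* was lower in all KO libraries, 15.4, 15.3 and 16.9 CPM against 19.1, 21.4 and 17.9 CPM, with a log2 fold change of -0.28 (SE 0.10, adjusted p = 0.43). *Ngp* (-0.14) and *Ltf* (0.46) overlapped. The 3 tested members with all KO libraries above WT compare with 8.11% of all tested genes, and the 1 below with 9.62%. The median over the 6 tested members was 0.77, beside 0.01 over all genes.

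For *S100a9* and *Retnlg* the KO libraries of gd16.5 overlapped those of gd19.5 and the WT libraries of gd16.5 overlapped those of gd14.5. In WT alone, *S100a9* gave -0.0021 from gd14.5 to gd16.5 and rose by 1.04 from gd16.5 to gd19.5 (SE 0.20, adjusted p = 0.0080 by edgeR). In KO alone, it rose by 1.13 at the earlier step (SE 0.35, adjusted p = 0.049) and gave -0.08 at the later step. *Retnlg* gave 0.22 and then rose by 1.74 in WT (SE 0.37, adjusted p = 0.014), and it rose by 1.80 (SE 0.40, adjusted p = 0.012) and then gave -0.53 in KO. The steps share the libraries of gd16.5, so that they are not separate evidence. The test of the difference itself, the interaction of genotype and stage in the fit of 24 libraries, called 0 of 19299 genes (0%), with unadjusted p of 0.028 for *S100a9*, 0.0028 for *Retnlg* and 0.0049 for *Saa3* and adjusted p of 0.66, 0.55 and 0.58 by edgeR. Over all genes 1396 had an unadjusted p under 0.05, and DESeq2's likelihood ratio test called 38 of 39540 genes and 0 members. A difference in timing between the genotypes was therefore not established.

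**Figure D4:**
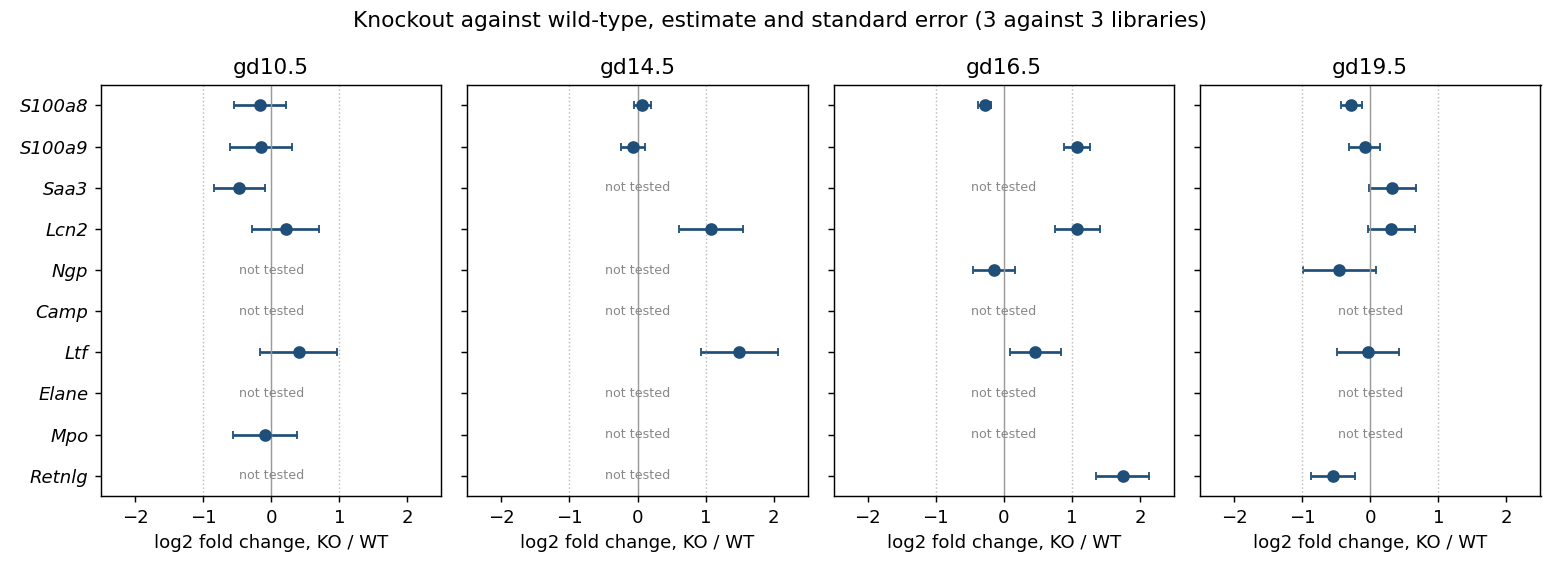
Log2 fold change of KO over WT with its standard error for each member at each stage (edgeR, 3 against 3 libraries), with dotted lines at -1 and 1. S100a9 (1.07), Retnlg (1.74) and Lcn2 (1.08) lie to the right at gd16.5, Lcn2 (1.08) and Ltf (1.50) at gd14.5, and members that did not pass the expression filter are marked as not tested.

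Other genes at gd16.5 are given with the same caution, since 11.1% of all tested genes had an unadjusted p under 0.05 there. Of 17 neutrophil identity genes 9 were tested, 0 were called and 2 had an unadjusted p under 0.05 with higher levels in KO: *Csf3r*, with 3.27, 2.03 and 2.09 CPM in WT and 5.13, 6.26 and 7.12 CPM in KO (log2 fold change 1.33, SE 0.23, adjusted p = 0.28), and *Hdc* (0.56). *Csf3r* reached 5.45 to 9.36 CPM in WT at gd19.5. Of 19 other specific and gelatinase granule genes, 11 were tested and 0 called, with *Mmp9* (1.05) and *Cybb* (0.78) above and *Pglyrp1* (-0.62) below at an unadjusted p under 0.05. Of 7 other azurophil granule genes 4 were tested and 0 called, and *Ctsg* (-1.53) and *Srgn* (-0.55) were lower in all KO libraries. *Ctsg* is the gene whose level ran with that of the NK effector gene *Prf1*. Of 9 neutrophil attractants 3 were tested and 0 called, with *Cxcl1*, a ligand of CXCR2, at 0.97. These genes were chosen once their values were known. *Ly6g* had 3 counts in WT gd16.5 replicate 1, 1 in KO gd16.5 replicate 2 and 0 in the other 4 libraries.

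Other cell types differed between the same libraries. At gd16.5 the sum of 5 monocyte markers was 279 to 325 CPM in WT and 387 to 442 CPM in KO, and that of 8 trophoblast markers 24141 to 33388 CPM and 39932 to 43975 CPM. The NK marker sum was 21.8 to 39.6 CPM in WT and 7.74 to 12.5 CPM in KO. None of these sums overlapped. Those of 10 macrophage markers (956 to 1328 CPM in WT and 989 to 1151 CPM in KO) did. So did those of 6 yolk sac endoderm and 6 decidual stroma markers. A sum follows its most abundant genes. Of 7 tested trophoblast markers, 5 had positive and 2 negative estimates, and 4 were above and 1 below WT in every KO library. All 6 decidual stroma markers had negative estimates, and 4 were below WT in every KO library. Over all tested genes, 8.11% were above and 9.62% below. The part of these cell types in the *S100a9* and *Retnlg* levels was not tested, except for yolk sac endoderm. With its marker sum as a covariate the estimates of *S100a9* and *Retnlg* were 1.10 and 1.57. Without KO gd16.5 replicate 2 they were 1.14 and 1.85.

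At gd14.5 *Ltf* and *Lcn2* had the largest estimates among the 4 members tested. *Ltf* was at 1.18, 0.138 and 2.44 CPM in WT and at 3.93, 3.74 and 2.07 CPM in KO, and *Lcn2* at 1.97, 0.663 and 4.63 CPM and at 5.38, 5.46 and 3.52 CPM. The genotypes overlapped in both. The log2 fold changes were 1.50 (SE 0.57, adjusted p = 0.71) for *Ltf* and 1.08 (SE 0.47, adjusted p = 0.73) for *Lcn2* by edgeR. They were 0.91 and 0.60 without WT gd14.5 replicate 2, the low library. Both were called by edgeR without the expression filter (adjusted p = 2.6e-11 for *Ltf*), a fit that called 44 genes in all. The uterine epithelial marker sum, nearly all *Krt18*, was 1350 to 1429 CPM in WT and 1350 to 1547 CPM in KO. Of the 10 markers 7 were tested, 5 with positive and 2 with negative estimates. The part of uterine epithelium was not tested. *S100a8* (0.07, SE 0.13) and *S100a9* (-0.07, SE 0.18) had the narrowest errors at this stage.

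At gd10.5 and gd19.5 every tested member overlapped between the genotypes. The estimates at gd10.5 ran from -0.47 (*Saa3*) to 0.40 (*Ltf*), with standard errors of 0.37 to 0.57 and an adjusted p of 1.0 for all 6, so that differences of this size were not detectable. At gd19.5 they ran from -0.55 (*Retnlg*, SE 0.32) to 0.32 (*Saa3*, SE 0.35). *Retnlg* at gd19.5 stood at 1.08, 0.672 and 0.793 CPM in WT and at 0.524, 0.409 and 0.818 CPM in KO. *Csf3r*, lower in KO at that stage with an estimate of -0.54 (adjusted p = 0.32), overlapped as well.

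The receptors and sensors of these proteins were tested alongside. Of 12 such genes 11 were tested at gd10.5, gd14.5 and gd16.5 and 12 at gd19.5, and 0 were called between genotypes. Between stages, the RAGE gene *Ager* rose by 1.09 and then by 1.72 on the log2 scale, from 0.727 to 1.10 CPM at gd10.5 to 4.50 to 6.84 CPM at gd16.5. *Tlr4*, the other calprotectin receptor, fell by 1.27 at the first step and was not called later. *Lrp1*, *Scarb1*, *Cd36* and *Tlr4* were the most abundant. The lipocalin 2 receptor megalin, *Lrp2*, fell by 3.02, rose by 3.47 and fell by 2.55 over the 3 steps, as the yolk sac endoderm markers did (0 of 6 rose and 6 fell, then 6 rose, then 6 fell). Of 10 other S100 genes, 9 were tested and 2 rose at each of the first and second steps, *S100a14* by 2.18 and 1.79 and *S100g* by 1.08 and 1.89, and 0 fell. *S100a6*, *S100a10*, *S100a11* and *S100a1*, the most abundant S100 genes besides, were not called at any step, so that *S100a8* was the S100 gene called lower from gd10.5 to gd14.5 among these 9 and the alarmin pair.

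Of 7 granulocyte transcription factors, 6 were tested and 2 fell at the first step, *Runx1* by 1.45 and *Gfi1* by 2.44, and *Gfi1* fell by a further 1.69 at the second. *Cebpb*, *Cebpd* and *Cebpa* were not called at any step. Among 15105 other genes with a mean of at least 1 CPM, those most like each member over the 24 libraries (Pearson's r of log2 CPM, a description in which stage carries most of the spread) were *Txn1* for *S100a8* (r = 0.99), *Phospho2* for *S100a9* (0.91), *Sc5d* for *Saa3* (0.85), *Ppp1cb* for *Ngp* (0.93), *Sh3bp5* for *Mpo* (0.95) and *Gm3365* for *Retnlg* (0.91). For *Lcn2* the nearest gene was *Prap1* (0.85), a secreted protein of the uterine epithelium in pregnancy, followed by *Irf5* (0.79) and *Serpina1e* (0.77). *Ltf* had no close match, with 0.66 for *Hykk*. The next were *Dock2* and *Cystm1* for *S100a8*, *Zfp869* and *1700071M16Rik* for *S100a9*, *Cep290* and *Ddx60* for *Saa3*, *Aktip* for *Ngp*, *Plekhb2* and *Cntln* for *Ltf*, *Slc25a5* and *Rbm45* for *Mpo* and *Gchfr* and *Gm47468* for *Retnlg*.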

How the data were processed

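Bulk RNA-seq of the MFI was analysed in 8 groups of 3 libraries. The authors deposited raw counts per gene: stranded mRNA libraries were trimmed with Trim Galore (0.6.4), aligned with STAR (2.7.3a) to GRCm38 and counted with featureCounts (Subread 2.0.0), per the labels and methods. Default counting ignores strand and drops reads with several alignments. Gene lengths of the deposited table gave levels per kb. Counts were tested with edgeR (4.0.16, R 4.3.3): filterByExpr (minimum count 10), TMM and the quasi-likelihood test, per stage for genotype and over all 24 libraries for stage and interaction. DESeq2 (1.42.0), limma voom (3.58.1), other filters and scalings, a replicate block, Y-linked expression as a covariate and each library left out were the alternatives. Single levels were tested by exact permutation and pairs of members by 100000 permutations within groups. The scripts were tested on simulated data. Sequences came from RefSeq (all 10 members matched), transcripts from GENCODE with BLAST. Correlations used a prior count of 2.

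Groups and replicate numbers came from the sample descriptions, since titles number the KO replicates otherwise. Labels name no dam, litter or run, so p-values measure the spread between these libraries, which may be partly technical. The numbers did not pair libraries: same-numbered WT and KO libraries of a stage had correlations of -0.46 to 0.41 in their deviations. Replicates of a group differed beyond sampling noise (chi-square per degree of freedom 8.68 or more). The members and lists were chosen with earlier results of these data known. All 10 members are named in every comparison, with list genes called between genotypes or, with none called, the 4 most abundant, and the 3 genes most like each member, of which 1 is not reported here. Other list genes were named after their values were seen, also where the text does not say so.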

Additional observations from a re-analysis of the deposited data

How the results depend on the processing

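The counts of members called kept within 1.5 times of the reported count in most alternatives. Between genotypes at gd14.5, 2 members (*Lcn2* and *Ltf*) were called without the expression filter, against 0, where the calls over all genes were 44 against 3. At gd16.5, 2 (*S100a9* and *Saa3*) were called without the filter, 1 by DESeq2 on 6 libraries (*S100a9*), 1 by DESeq2 on all 24 (*Saa3*) and 0 to 2 when a library was left out, the 2 (*S100a9* and *Retnlg*) in a fit without the filter and without KO gd16.5 replicate 2. Over all genes these fits called 50, 47, 43 and, for the last, 116, against 1. That fit, and a yolk sac endoderm covariate, were chosen after seeing the data. From gd10.5 to gd14.5, 2 were called in genes with at least 10 counts in every library, where 3 members were tested. In the KO libraries alone 2 were called, against 5 in the reported fit. Over all genes these fits called 2235 of 14655 and 3460 of 18467, against 4319 of 19299. From gd14.5 to gd16.5, 5 were called with no threshold on fold and 0 with at least 10 counts in every library, against 3. In the WT libraries alone 1 was called, and 1 to 3 when a library was left out. Over all genes, the fit with at least 10 counts called 634 of 14655 and the WT libraries alone 1037 of 18523. Fits that left out a library called 1372 to 1706, against 1548 of 19299 in the reported fit. From gd16.5 to gd19.5, 2 (*S100a9* and *Retnlg*) were called in the WT libraries alone, against 0. Over all genes that fit called 397 of 18523, against 514 of 19299. With the replicate block, 0 members were called between genotypes at each stage, 0 for the interaction and 5, 2 and 0 over the steps. Over all genes the block gave 4307, 1517 and 466 calls over the steps. The replicate numbers did not pair the libraries. The cause of these shifts was not tested where the alternative does not itself remove genes or libraries.

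The sign turned only for uncalled estimates. With Y-linked expression as a covariate the log2 fold change between genotypes was 0.16 for *S100a8* and 0.28 for *Mpo* at gd10.5, and 0.012 for *S100a9* and 0.43 for *Ltf* at gd19.5. By limma voom these were 0.12, 0.14, 0.052 and 0.81, and *Ltf* at gd19.5 was 0.042 with the block. In the KO libraries alone, *Ltf* was 0.19 from gd10.5 to gd14.5, and from gd16.5 to gd19.5 *S100a9* was -0.078, *Lcn2* -0.093 and *Retnlg* -0.53. In the WT libraries alone, *S100a9* was -0.0021 and *Ltf* 0.22 from gd14.5 to gd16.5, and *Saa3* was 0.34 from gd16.5 to gd19.5.

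When a library was left out, the estimates between genotypes at gd10.5 ran from -0.39 to 0.20 for *S100a8*, -0.76 to 0.14 for *S100a9*, -0.33 to 0.73 for *Lcn2*, -0.49 to 0.79 for *Ltf* and -0.33 to 0.26 for *Mpo*. At gd14.5 they ran from -0.082 to 0.17 for *S100a8* and -0.20 to 0.060 for *S100a9*, at gd16.5 from -0.33 to 0.018 for *Ngp*, and at gd19.5 from -0.34 to 0.14 for *S100a9*, -0.061 to 0.59 for *Lcn2* and -0.49 to 0.43 for *Ltf*. Over the first step *Ltf* ran from -0.75 to 0.13, over the second *Lcn2* from -0.58 to 0.063 and *Ltf* from -0.55 to 0.15, and over the last *Mpo* from -2.16 to 0.87. With 3 libraries per group and under 20 counts a library for *Retnlg*, *Ngp*, *Mpo*, *Camp* and *Elane* in most libraries, depth limits what can be seen of these genes.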
